A study of Mus musculus with 6 samples.

Results

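The 8 genes described here break down propionyl-CoA and methylmalonyl-CoA or handle cobalamin, the vitamin cofactor of the last step. They are Pcca, Pccb, Mcee, Mut, Mmaa, Mmab, Mmachc and Mtr, 8 of the 37620 gene identifiers in each file and 8 of the 16432 genes tested. The set was chosen by the measured level of Mut, which had been seen to be higher in knockout, and completed by function with the other 7 genes. The genotype difference of Mut is therefore a description, and calls that include Mut are counted below without being read as evidence. RNA was sequenced from the hippocampus of 3 knockout mice of the miR-17-92 microRNA cluster and 3 wildtype mice, all C57BL/6, aged 13 weeks and from separate litters. Which cells lost the cluster, by what means, which part of it was deleted and the sex of the mice are not stated in the labels. Gene reads per library came to between 26439693 and 57246827, and all 10 hippocampal neuron markers looked for were read, among them Zbtb20 at 819 ± 86 CPM (reads scaled to the library's gene reads) in knockout and 857 ± 111 CPM in wildtype. The host transcript Mir17hg averaged 0.970 ± 0.34 CPM in knockout and 1.09 ± 0.033 CPM in wildtype (SD, n = 3 each), a low level that overlapped between genotypes and so does not check the genotype labels.

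Valine, isoleucine, methionine, threonine and fatty acids of odd chain length are degraded to propionyl-CoA in mitochondria. Propionyl-CoA carboxylase, built from the biotin-carrying subunit Pcca and the subunit Pccb, turns it into methylmalonyl-CoA, Mcee converts that product to its mirror form, and the mutase encoded by Mut rearranges it to succinyl-CoA, which enters the citric acid cycle. The mutase needs adenosylcobalamin: Mmachc processes incoming cobalamin in the cytosol, Mmab attaches the adenosyl group, and Mmaa helps to load and protect the cofactor on the mutase. Mtr, methionine synthase, is the other mammalian enzyme that uses cobalamin, and methylates homocysteine in the cytosol. In people, inherited loss of Mut, Mmaa, Mmab or Mmachc causes methylmalonic aciduria, which often affects the brain.

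The microRNAs of the cluster recognise target RNAs mainly through their seed, bases 2 to 8, so the mature sequences are shown with the seed in capitals to set the members' 3′ UTRs beside them. They come from the RefSeq table for GRCm38.p6, lie on the plus strand of chromosome 14 and read 5′ to 3′. miR-17 and miR-20a share a seed, as do miR-19a and miR-19b.
mmu-miR-17-5p: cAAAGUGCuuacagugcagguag
mmu-miR-20a-5p: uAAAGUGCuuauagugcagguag
mmu-miR-18a-5p: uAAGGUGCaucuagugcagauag
mmu-miR-19a-3p: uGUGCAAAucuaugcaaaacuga
mmu-miR-19b-3p: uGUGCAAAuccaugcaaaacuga
mmu-miR-92a-3p: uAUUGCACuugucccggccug

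Mut held no match to any of these seeds in its longest annotated 3′ UTR of 1292 bases, and neither did Pcca (389 bases), Pccb (653) and Mcee (234). The 4 other members, all cobalamin genes, had 1 match each. The stretches of 30 bases around the matches, from GENCODE M21 transcripts, are shown because they are the only matches in the 8 UTRs searched. The 7 bases that pair with the seed are in capitals.
Mmaa (miR-17 and miR-20a): ttacatagctaGCACTTTccaaactgagct
Mtr (miR-17 and miR-20a): ctggaaaagaaGCACTTTtccagggacctt
Mmab (miR-19a and miR-19b): agcatgaaTTTGCACagtgggcgagaggtc
Mmachc (miR-19a and miR-19b): agtgctgatttTTTGCACtgtggaaaaacc

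The match in Mmab began 9 bases after the stop codon, and those in Mmachc, Mtr and Mmaa 184, 203 and 1144 bases after it. Among 21037 genes with an annotated 3′ UTR, 11.8% held the miR-17 and miR-20a match GCACTTT, 11.5% the miR-19 match TTTGCAC, 7.81% the miR-18a match GCACCTT, 6.56% the miR-92a match GTGCAAT, and 28.8% at least 1 of the 4. The 3′ UTRs of Mmaa (4330 bases) and Mtr (4293) were longer than those of 94.4% and 94.3% of these genes. The search covered the UTR strand as transcribed, and a match is a run of letters and not a measured binding site.

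**Figure D1:**
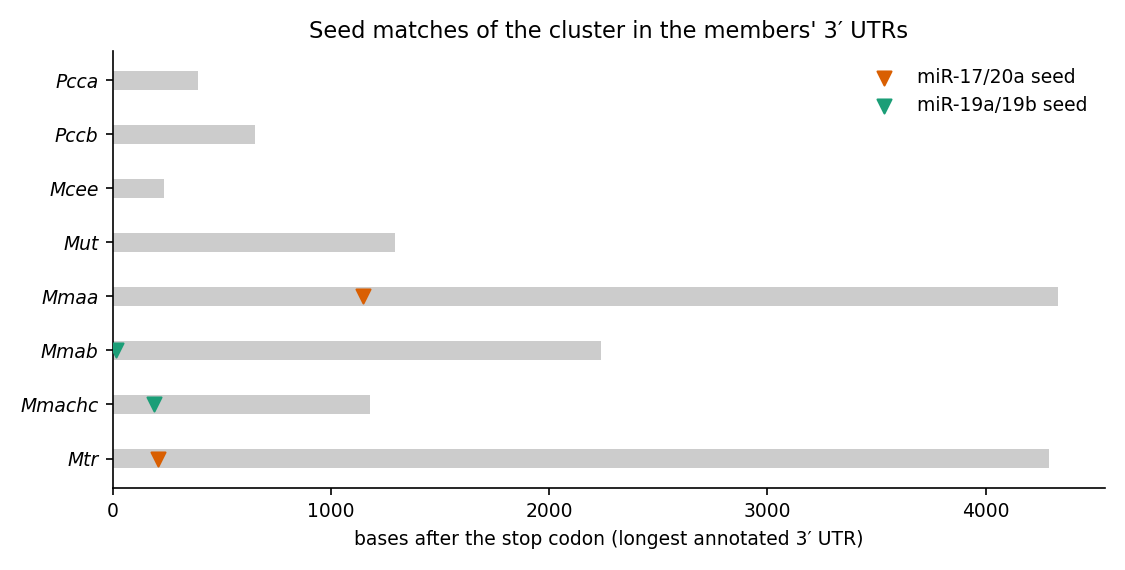
Length of the longest annotated 3′ UTR of each member in bases after the stop codon (grey bars), with triangles at the middle of each seed match of the cluster. Mmaa, Mmab, Mmachc and Mtr carry 1 match each, and Pcca, Pccb, Mcee and Mut carry none.

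Mut (ENSMUSG00000023921), the mutase, was the only member whose knockout and wildtype libraries did not overlap. It measured 58.5, 55.7 and 54.6 CPM (with TMM library sizes) in knockout replicates 1, 2 and 3, against 40.1, 39.6 and 42.6 CPM in wildtype replicates 1, 2 and 3. Every knockout library was above every wildtype library, and the gap between the genotypes was wider than the range inside either one. The means were 56.3 ± 2.0 CPM in knockout and 40.8 ± 1.6 CPM in wildtype (SD, n = 3 each), a log2 fold of 0.46 (SE 0.05), or 1.38-fold. These values rest on 1879, 1466 and 3117 reads in knockout and 1610, 1733 and 1359 in wildtype, so that counting alone gives an error of 1.79% to 2.71% per library. Variation between mice was 3.51% of the mean in knockout and 3.98% in wildtype. Of the 16432 genes tested, 360 (2.19%) had a larger log2 fold than Mut. Since Mut was picked for this difference, its size is a description of these 6 mice. In whole tissue, more cells of a type and more RNA per cell cannot be told apart.

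The other 7 members had nearly the same summed level in both genotypes. Their CPM added up to 182.1, 180.2 and 175.2 in the knockout libraries and to 175.7, 181.8 and 181.6 in the wildtype libraries, or 179.2 ± 3.6 in knockout and 179.7 ± 3.5 in wildtype (SD, n = 3 each). The ranges overlapped almost entirely. Mut therefore took a larger part of the reads of the 8 genes, 24.3%, 23.6% and 23.8% in knockout replicates 1, 2 and 3, against 18.6%, 17.9% and 19.02% in wildtype replicates 1, 2 and 3. This share compares genes within a library and does not depend on how libraries were scaled.

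**Figure D2:**
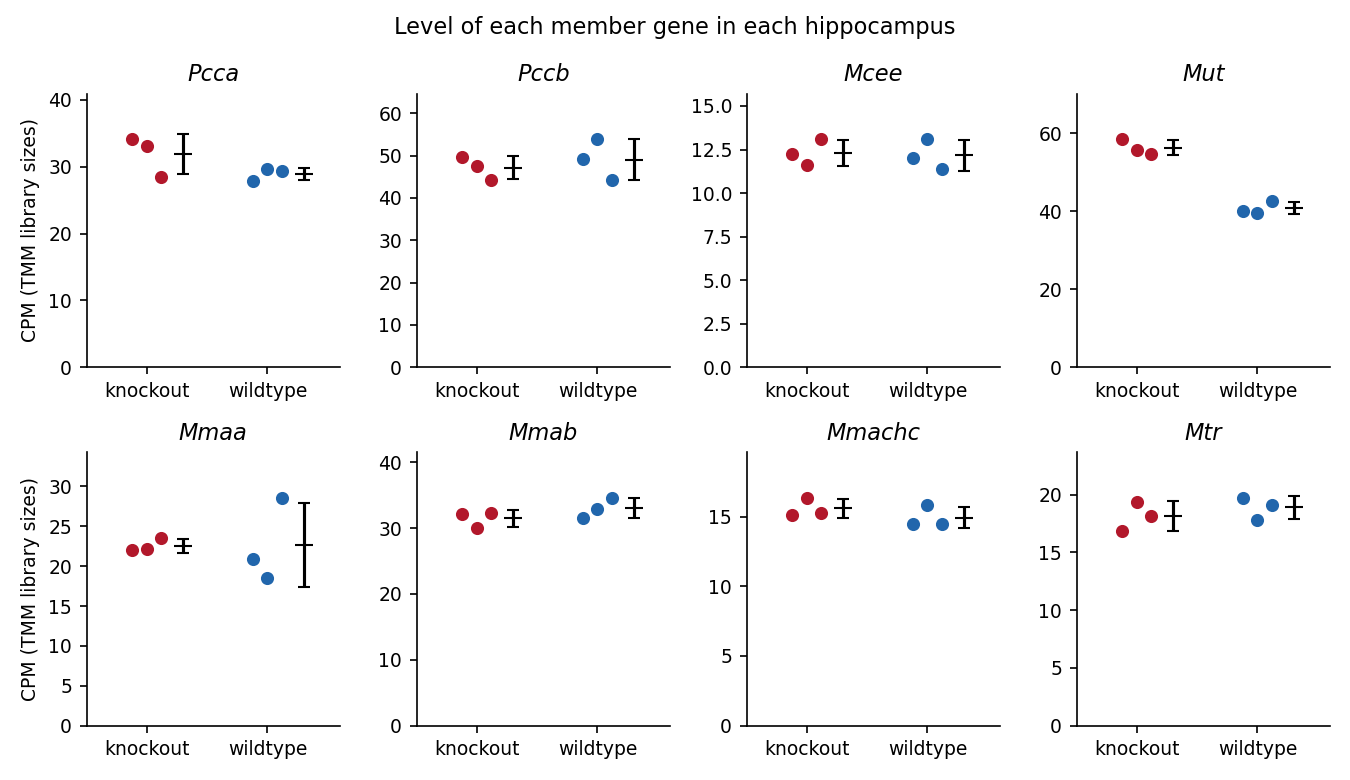
CPM with TMM library sizes of each member in every hippocampus, knockout in red and wildtype in blue, with mean and SD (n = 3 each) at the right of each group; all axes start at 0. The 3 knockout values of Mut sit between 54.6 and 58.5 CPM, above all wildtype values, and the groups overlap for the other 7 genes.

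With edgeR's quasi-likelihood test at an adjusted p under 0.05, 0 of the 8 members passed, as did 0% of all 16432 genes tested. At an unadjusted p under 0.05, 1 of the 8 was higher and 0 lower with edgeR, against 5.05% and 5.58% of all genes. DESeq2 called 1 of 8 members higher and 0 lower at an adjusted p under 0.05, against 0.587% and 0.688% of the 12939 genes with an adjusted p (1.28% in all). The robust fit of edgeR called 1 member higher and 0 lower, against 0.0791% and 0.0122% of genes (0.0913% in all), and limma-voom called 0 members and 0% of genes. That 1 gene was Mut in each case, the gene the set was built on, so nothing is read from these counts. Genotypes did not overlap for 1 of 8 members, higher in knockout, and for 0 in the other direction, against 8.29% and 8.34% of all genes tested (16.6% in all). Without Mut, 0 of 7 members had an unadjusted p under 0.05 with edgeR, against 10.6% of all genes, and 0 of 7 were free of overlap. The median log2 fold of these 7 was -0.002, against a median of 3.93e-05 over all genes tested, and 3 of 7 folds were positive, against 50.01% of all genes. With Mut included, the median was 0.01 and 4 of 8 folds were positive.

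Both carboxylase subunits had overlapping genotypes. Pcca (ENSMUSG00000041650), the biotin-carrying subunit, measured 34.1, 33.1 and 28.5 CPM in knockout replicates 1, 2 and 3, against 27.9, 29.7 and 29.3 CPM in wildtype replicates 1, 2 and 3. Knockout replicates 1 and 2 were above all wildtype libraries while knockout replicate 3 lay among them, and the log2 fold was 0.14 (SE 0.07, 95% interval -0.03 to 0.31, adjusted p = 0.565). Pccb (ENSMUSG00000032527), its partner subunit, had 49.6, 47.6 and 44.3 CPM in knockout and 49.1, 53.9 and 44.2 CPM in wildtype. The genotypes overlapped, with a log2 fold of -0.06 (SE 0.08, 95% interval -0.23 to 0.11, adjusted p = 0.815). Within the 3 deeper libraries (knockout 3, wildtype 1 and 2) the log2 difference of Pcca was -0.01 and within the 3 shallower ones 0.20. For Mut these differences were 0.45 and 0.42.

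Mcee (ENSMUSG00000033429), the epimerase between carboxylase and mutase, was the lowest of the 8 genes in CPM. It had 12.2, 11.6 and 13.1 CPM in the knockout libraries and 12.01, 13.1 and 11.4 CPM in the wildtype libraries. Each genotype covered almost the same range, and the log2 fold of 0.02 (SE 0.09) had a 95% interval of -0.18 to 0.22 (adjusted p = 0.955).

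The 3 genes that prepare the cofactor of the mutase also had overlapping genotypes. Mmaa (ENSMUSG00000037022), which loads and guards the cofactor, had 22.0, 22.1 and 23.5 CPM in knockout replicates 1, 2 and 3, against 20.9, 18.6 and 28.6 CPM in wildtype replicates 1, 2 and 3. Wildtype replicate 3 was the highest of the 6 libraries, and wildtype mice varied by 23.1% of their mean, the widest spread of any member in either genotype. The log2 fold was -0.002 (SE 0.14, 95% interval -0.32 to 0.31, adjusted p = 0.997). It was 0.19 without wildtype replicate 3 and -0.13 without wildtype replicate 2. Mmab (ENSMUSG00000029575), the adenosyltransferase, had 32.2, 30.03 and 32.3 CPM in knockout and 31.6, 32.9 and 34.6 CPM in wildtype. The ranges overlapped, with a log2 fold of -0.07 (SE 0.06, 95% interval -0.20 to 0.06, adjusted p = 0.710). Mmachc (ENSMUSG00000028690), which frees cobalamin from its incoming form, had 15.1, 16.4 and 15.3 CPM in knockout and 14.5, 15.8 and 14.5 CPM in wildtype. These ranges overlapped as well, at a log2 fold of 0.06 (SE 0.07, 95% interval -0.11 to 0.23, adjusted p = 0.803).

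Mtr (ENSMUSG00000021311), the cobalamin enzyme of the methionine cycle, measured 16.9, 19.4 and 18.2 CPM in knockout and 19.7, 17.8 and 19.1 CPM in wildtype. The log2 fold was -0.06 (SE 0.08, 95% interval -0.23 to 0.11, adjusted p = 0.813), and the genotypes overlapped. The 4 members with a seed match had log2 folds of -0.07 to 0.06. Among the tested genes with an annotated 3′ UTR the median log2 fold was 0.01 for the 4841 with a match and -0.005 for the 9677 with none. Folds were positive for 54.5% of those with a match and 48.3% of those with none. This split was not matched for 3′ UTR length. Leaving out 1 mouse at a time gave log2 folds of 0.08 to 0.21 for Pcca, -0.10 to -0.03 for Mmab, 0.03 to 0.11 for Mmachc and -0.11 to -0.01 for Mtr.

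**Figure D3:**
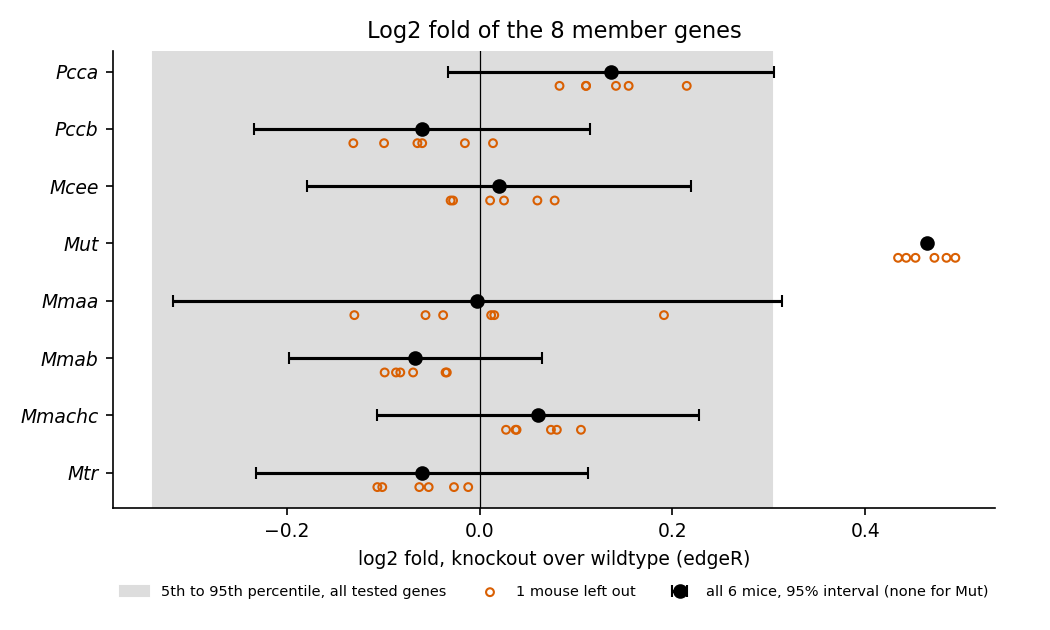
Log2 fold, knockout over wildtype, of each member (black; 95% interval for all but Mut, which was chosen for this difference), the same after leaving out 1 mouse at a time (open circles), and the 5th to 95th percentile of all tested genes (grey). Mut lies at 0.46, and the intervals of the other 7 genes include 0.

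Per length of exon, the members spanned a wide range of levels. In wildtype Pccb was highest at 17.7 ± 1.8 CPM per kilobase (SD, n = 3), followed by Mcee at 12.7 ± 0.92, Mut at 10.8 ± 0.43, Mmab at 9.004 ± 0.41, Mmachc at 6.71 ± 0.35, Pcca at 5.56 ± 0.18, Mmaa at 3.77 ± 0.87 and Mtr at 2.22 ± 0.11. No neighbours in this order overlapped in their wildtype libraries. In knockout Mut stood at 14.9 ± 0.52 CPM per kilobase and Mcee at 12.9 ± 0.78, without overlap, and the rest of the order was the same. On the longest transcript the knockout ranges overlapped, at 14.9 to 15.9 for Mut and 14.03 to 15.8 for Mcee. The place of Pcca depends on the length used as well: on its longest transcript it moved above Mut and Mmab in wildtype, at 11.2 CPM per kilobase, against 11.1 for Mut and 10.9 for Mmab. All genes tested considered, Pccb lay above 83.4% of them per kilobase and Mtr above 35.3%.

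Around these 8 genes, 63 further genes in 6 lists feed, serve or follow the same reactions. Of these 62 matched an identifier and 61 were tested, and 0 passed in either direction with edgeR, DESeq2, limma-voom or edgeR's robust fit. At an unadjusted p under 0.05 there were 4 higher (6.56%) and 1 lower (1.64%) with edgeR, against 5.05% and 5.58% of all genes. The genotypes did not overlap for 10 of the 61 (16.4%), which is close to the 16.6% of all genes. Of the 61 folds 34 were positive, with a median log2 fold of 0.02.

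Breakdown of branched-chain amino acids, which supplies propionyl-CoA from valine and isoleucine, held 4 of those 5 genes, 25% of its 16 tested genes against 10.6% of all genes, and genotypes did not overlap for 5 of the 16 (31.2%, against 16.6%). Of the 16, 10 folds were positive and 6 negative, with a median log2 fold of 0.05. Bckdha, a subunit of the dehydrogenase that commits these amino acids to breakdown, had 30.3, 28.3 and 26.8 CPM in knockout and 33.0, 32.4 and 31.7 CPM in wildtype. All knockout values were below all wildtype values, at a log2 fold of -0.19 (SE 0.06, adjusted p = 0.352). Aldh6a1, the methylmalonate semialdehyde dehydrogenase that makes propionyl-CoA from valine, had 83.1, 82.1 and 75.9 CPM in knockout and 69.5, 78.1 and 69.3 CPM in wildtype. One wildtype library reached into the knockout range, and the log2 fold was 0.15 (SE 0.06, adjusted p = 0.442). Dld, the shared lipoamide dehydrogenase subunit, averaged 126.3 ± 1.8 CPM in knockout and 118.4 ± 1.9 CPM in wildtype (SD, n = 3 each), a log2 fold of 0.09 (adjusted p = 0.452). Acadsb, the isoleucine-pathway acyl-CoA dehydrogenase, was named after its values were seen, at 78.7 ± 4.0 CPM in knockout and 72.5 ± 2.3 CPM in wildtype.

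Uptake and trafficking of cobalamin had 12 tested genes, 8 positive and 4 negative, with a median log2 fold of 0.05 and 0 at an unadjusted p under 0.05. Tcn2, the plasma carrier transcobalamin, averaged 16.3 ± 0.65 CPM in knockout and 14.8 ± 0.45 CPM in wildtype (SD, n = 3 each), a log2 fold of 0.13 (adjusted p = 0.544). It was the 1 gene of the 12 whose genotypes did not overlap (8.33%, against 16.6% of all genes). Lmbrd1, which exports cobalamin from lysosomes, had 182.0 ± 3.6 CPM in knockout and 171.1 ± 7.6 CPM in wildtype, a log2 fold of 0.09 (adjusted p = 0.536). Lrp2, an endocytic receptor, was low at 3.62 ± 0.75 CPM in knockout and 2.64 ± 1.0 CPM in wildtype, and its log2 fold of 0.45 was 0.82 without wildtype replicate 1 and 0.27 without wildtype replicate 2. None of these differences passed.

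The folate and methionine cycle, which surrounds Mtr, had 8 positive and 6 negative folds among 14 tested genes, with a median log2 fold of 0.03 and 0 genes at an unadjusted p under 0.05. Mat2a, which makes S-adenosylmethionine, averaged 211 ± 17 CPM in knockout and 193 ± 5.7 CPM in wildtype (SD, n = 3 each). Its log2 fold of 0.13 was 0.06 without knockout replicate 3 and 0.16 without knockout replicate 1. Cbs, which diverts homocysteine to cystathionine, had a log2 fold of 0.13 and Mtrr, the reductase that reactivates Mtr, one of 0.11, with adjusted p of 0.527 and 0.631 in edgeR's test. The fold of Mtrr was 0.05 without wildtype replicate 3 and 0.17 without wildtype replicate 2. The most negative fold of the list, -0.65 for Ahcy, was named after its values were seen and rests on at most 1.53 CPM in any library.

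Among biotin genes, 2 of 7 folds were positive and 5 negative, with a median log2 fold of -0.02. Hlcs, which attaches biotin to Pcca, averaged 13.2 ± 1.0 CPM in knockout and 15.3 ± 1.7 CPM in wildtype (SD, n = 3 each), a log2 fold of -0.21 (adjusted p = 0.493). Btd, which recycles biotin, and Mccc2, a subunit of the leucine-pathway carboxylase, had log2 folds of -0.19 and -0.11. Leaving out 1 mouse at a time gave folds of -0.28 to -0.13 for Hlcs, -0.29 to -0.09 for Btd and -0.16 to -0.07 for Mccc2. The fold was smallest in size without wildtype replicate 3 for Hlcs, and without wildtype replicate 2 for Btd and Mccc2. The list gave 0 genes at an unadjusted p under 0.05.

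Downstream, where succinyl-CoA enters the citric acid cycle, 4 of 7 folds were positive and 3 negative, with a median log2 fold of 0.01 and 0 genes at an unadjusted p under 0.05. Sucla2 and Suclg2, alternative subunits of succinyl-CoA ligase, had log2 folds of 0.11 and 0.13, and Sdhd, a subunit of succinate dehydrogenase, one of -0.07. Sucla2 was higher in every knockout library and Sdhd lower in every one, with adjusted p of 0.499 and 0.592 in edgeR's test. Genotypes thus did not overlap for 2 of the 7 genes (28.6%), against 16.6% of all genes. The fold of Sucla2 was 0.06 without knockout replicate 2 and 0.14 without knockout replicate 1. That of Suclg2 was 0.09 without wildtype replicate 3 and 0.18 without knockout replicate 3.

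Of 5 genes for activating short-chain acids and handling malonyl-CoA, 2 folds were positive and 3 negative, with a median log2 fold of -0.06. At an unadjusted p under 0.05 with edgeR there was 1 gene, Acss1, 20% of the list against 10.6% of all genes. Acss1, a mitochondrial synthetase that activates acetate, had 45.5, 44.8 and 47.1 CPM in knockout and 40.0, 36.6 and 41.6 CPM in wildtype. It was the 1 gene of the 5 whose genotypes did not overlap (20%, against 16.6% of all genes). Its log2 fold of 0.22 (SE 0.06) had the smallest adjusted p of the 61 genes in edgeR's test, 0.311. Acsf3, which activates malonate, and Mlycd, malonyl-CoA decarboxylase, had log2 folds of -0.09 and -0.08. The fold of Acsf3 was -0.04 and that of Mlycd 0.0056 without knockout replicate 3. Acsf3 was at -0.15 without knockout replicate 2, and Mlycd at -0.14 without knockout replicate 1.

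**Figure D4:**
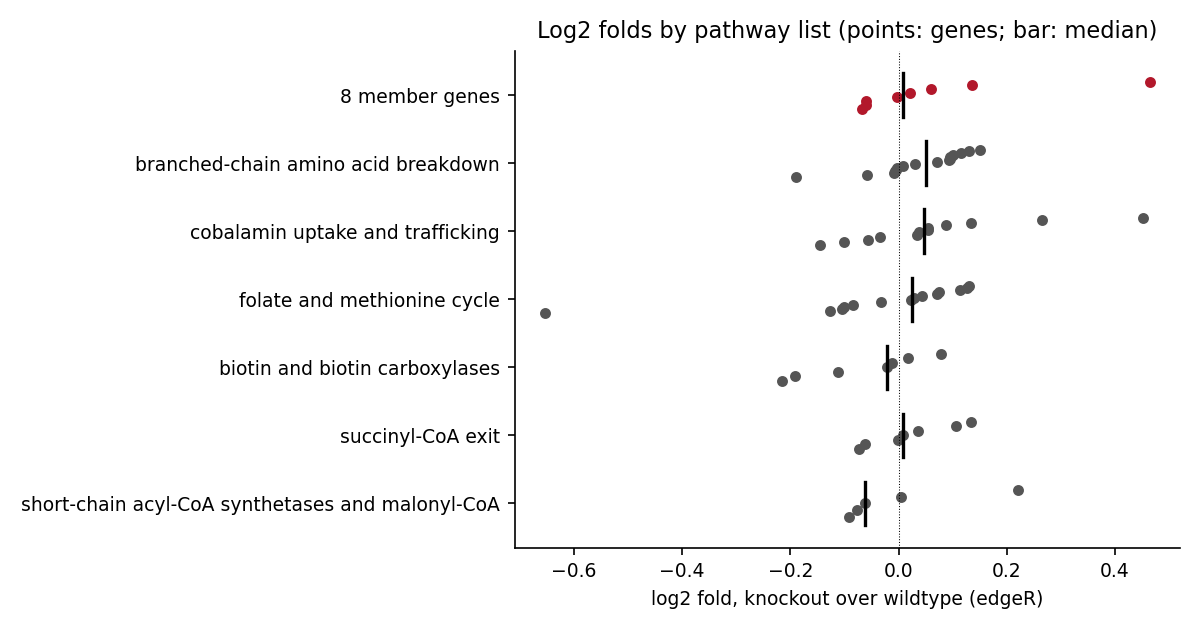
Log2 folds, knockout over wildtype, of the 8 members (red) and of the tested genes of the 6 lists (grey), 1 point per gene, with the median of each list as a bar. Mut at 0.46 and Lrp2 at 0.45 are the highest points, Ahcy at -0.65 is the lowest, and list medians lie between -0.06 and 0.05.

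Mut lies on chromosome 17, and its neighbours were examined in gene order without coordinates, since the reads were counted on mm9 and the gene order comes from GRCm38. Of the 5 tested genes on each side, 0 passed with edgeR, its robust fit, limma-voom or DESeq2, which gave no adjusted p for H2-M3 and Adgrf2. Among these neighbours Ptchd4, Adgrf2 and Cd2ap had an unadjusted p under 0.05 with edgeR, as did 10.6% of all genes tested. The same genes, and no other neighbour, had genotypes that did not overlap, against 16.6% of all genes tested. On the nearer sides Cenpq, a centromere protein, had a log2 fold of 0.21 (SE 0.14) and Ptchd4 one of 0.21 (SE 0.09). Ptchd4 was higher in every knockout library, with 9.55, 10.6 and 9.69 CPM in knockout and 8.60, 8.25 and 8.94 CPM in wildtype. Cd2ap and Adgrf2 were lower in every knockout library, at log2 folds of -0.21 (SE 0.06) and -0.57 (SE 0.23). The remaining 6 neighbours, Zfp57, Mog, Gabbr1, H2-M3, Adgrf4 and Tnfrsf21, had log2 folds of -0.09 to 0.14, and those of Mog, H2-M3, Adgrf4 and Tnfrsf21 changed sign when 1 mouse was left out. Neighbours thus had folds of either sign, all of them smaller in size than that of Mut except that of Adgrf2. On chromosome 17 as a whole 14.5% of 738 tested genes had an unadjusted p under 0.05 with edgeR in either direction. This was the highest share of any chromosome, against 10.6% of all genes. Counting only genes higher in knockout, the share was 6.23%, against 5.05% of all genes and 10.4% on chromosome X. The median log2 fold of chromosome 17 was -0.02.

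**Figure D5:**
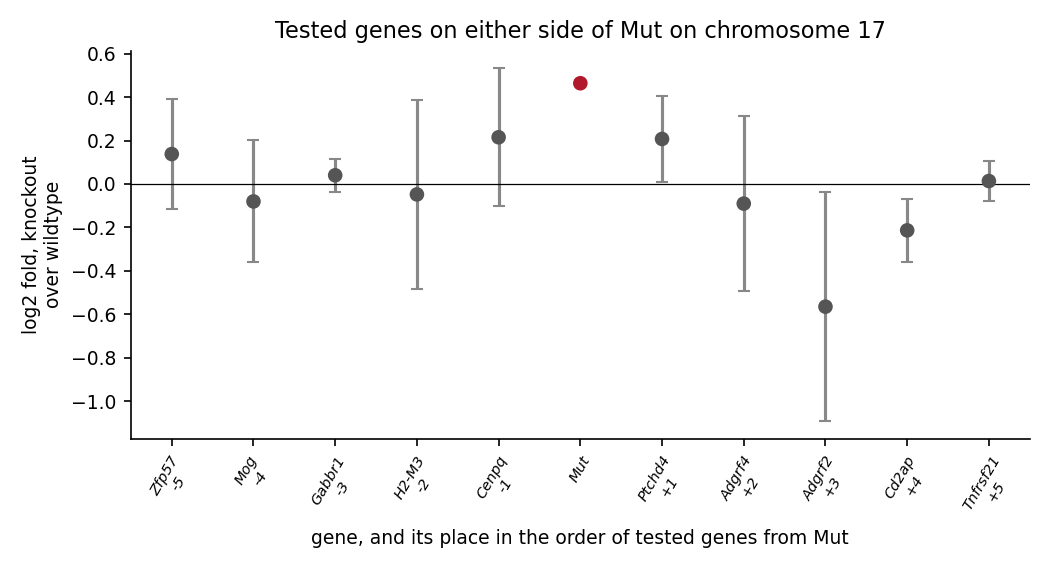
Log2 fold, knockout over wildtype, for Mut (red, with no interval) and, with 95% intervals, the 5 tested genes on each side of it on chromosome 17, in gene order. Cenpq and Ptchd4 next to Mut lie at 0.21 each, and values range from -0.57 for Adgrf2 to 0.46 for Mut.

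Cenpq overlaps Mut on the opposite strand over 95 exon bases, 2.51% of the exon length of Mut, and the strand setting of the counting is not given. Cenpq itself held 103, 76 and 177 reads in the knockout libraries and 118, 107 and 81 in the wildtype libraries, at most 177 reads beside at least 1359 of Mut. Apart from 47 runs of 50 bases shared with Cenpq (1.26% of its own), no transcript of another gene held a run of Mut. Pcca overlaps Ggact on the opposite strand over 241 exon bases, 4.63% of its exon length, and shared 3.65% of its runs of 50 bases with Ggact or Bscl2. Ggact averaged 13.8 CPM in knockout and 12.7 CPM in wildtype. Pccb, Mcee, Mmab and Mtr shared no run of 50 bases with another gene, and Mmaa and Mmachc shared 2.16% and 2.12% of theirs.

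Pcca lies on chromosome 14 like the cluster, with 30 tested genes between Mir17hg and Pcca. Of these 23 had a positive and 7 a negative fold, against 50.01% positive over all genes, with a median log2 fold of 0.06. At an unadjusted p under 0.05 with edgeR there were 4 of the 30. The share was 10.6% over all genes and 13.6% on chromosome 14. Whether this position bears on the fold of Pcca was not tested.

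The 5 genes whose pattern was most like that of Mut, by Pearson's r of log2 CPM over the 6 libraries, were Hdgfl3, Coa6, Slc25a5, Gm16365 and Pyurf. Their r of 0.98 to 0.99 is given as a description over 6 libraries that share the same split by genotype. Their log2 folds were smaller, from 0.05 for Slc25a5 to 0.32 for Gm16365, which averaged under 1 CPM. Among the members r with Mut was highest for Pcca at 0.70 and lowest for Mmab at -0.47.

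Marker levels of the cell types in the tissue are given beside Mut. The 12 astrocyte markers summed to 6282 to 6814 CPM in knockout and 5798 to 6475 CPM in wildtype, and the genotypes overlapped. Of the 12 folds 10 were positive, with a median log2 fold of 0.08. At an unadjusted p under 0.05 with edgeR, 4 of the 12 were higher and 1 lower, against 5.05% and 5.58% of all genes. Neuron markers summed to 13514 to 15076 CPM in knockout and 13311 to 13567 CPM in wildtype, again with overlap. Oligodendrocyte markers summed to 3182 to 3428 CPM in knockout and 3341 to 4122 CPM in wildtype, with overlap, 1 of 8 folds positive and a median log2 fold of -0.15. Microglia, endothelium and choroid plexus overlapped too, and 0 markers of any list were at 0 reads in all libraries. The summed meningeal markers did not overlap, with 391.8, 314.3 and 426.8 CPM in knockout replicates 1, 2 and 3. Wildtype replicates 1, 2 and 3 had 242.3, 270.7 and 283.1 CPM. For these markers 8 of 8 folds were positive, with a median log2 fold of 0.39. At an unadjusted p under 0.05 with edgeR, 5 of the 8 were higher and 0 lower, against 5.05% and 5.58% of all genes. Ptgds, the marker of highest level, averaged 267 ± 54 CPM in knockout and 174 ± 23 CPM in wildtype. Dcn, the next highest, averaged 50.6 ± 11.4 CPM in knockout and 46.6 ± 4.0 CPM in wildtype (SD, n = 3 each). Both Mut and the meningeal sum, though not shown for each marker, were thus higher in every knockout library. Within knockout the library with most meningeal markers, replicate 3, had the lowest Mut level, and within wildtype the library with most of them, also replicate 3, had the highest. The part of meninges in the result was not tested.

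Mut is poor in G and C. Its longest transcript is 41.9% GC, against a median of 49.8% over all tested genes, and the 1087 tested genes within 1 percentage point of it had a median log2 fold of 0.06. Mmaa, at 41.9% GC, had a log2 fold of -0.002. The log2 fold of Mut was 0.41 once gene-wise offsets removed trends with base composition and length, and the part of base composition in it was not tested further.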

How the data were processed

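The authors deposited whole-number read counts per Ensembl gene, 1 file per mouse. The submitters' processing notes name build mm9 and, as tools, STAR 2.3.0e, HTSeq, SAMtools, DESeq2 and FastQC 0.10.1. What each tool did, which gene models were used and whether strand was counted is not given in these sources. The 5 rows of each file that name no gene (38.0% to 40.3% of each total) were left out. Gene order, lengths and 3′ UTRs came from GENCODE M21. Symbols came from a separate list of gene names, where 32897 of 37620 identifiers matched a symbol.

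Counts were fitted in edgeR 4.0.16 under R 4.3.3 with genotype as the single term, using the quasi-likelihood test after filterByExpr and TMM scaling. P-values were adjusted by Benjamini-Hochberg over all tested genes. All 8 members passed the filter. Alternatives used DESeq2 1.42.0, limma-voom (limma 3.58.1), other scalings, filters and offsets, a replicate block, and leaving out each mouse. Exon lengths are unions of annotated exons.

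The members, lists and alternatives were chosen with earlier results of these data known. Named by rule were all members, the 3 genes of smallest p in each list, 5 tested neighbours on each side of Mut, the 5 genes most like it, and the leading markers of each cell type. Replicate numbers pair no mice, since each came from a litter of its own. Between genotypes, libraries with the same number had correlated deviations of -0.10, -0.02 and -0.15. P-values set the genotype difference against the spread between 3 mice per genotype, with each gene's variance drawn toward that of other genes.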

Additional observations from a re-analysis of the deposited data

How the results depend on the processing

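The log2 fold of Mut ran from 0.41 to 0.46 over the alternatives with all mice and from 0.43 to 0.49 when 1 mouse was left out. The count of members called, 0 with edgeR, was 1 without a filter beyond 1 read, 1 with DESeq2, 1 with the robust fit and 1 at an adjusted p under 0.10, and 0 to 1 when 1 mouse was left out (1 without knockout replicate 3). The member was Mut each time, the gene the set was chosen on, so these calls are no evidence about the members. The count of all genes called, 0 with edgeR, was 62 without that filter (36 higher, 26 lower), 165 with DESeq2 (76 and 89), 15 with the robust fit (13 and 2) and 18 at an adjusted p under 0.10 (14 and 4). Leaving out 1 mouse gave 0 to 17 genes: 17 when knockout replicate 3 was dropped, 16 for wildtype replicate 2, and 2 each for wildtype replicate 1 and knockout replicate 1. The cause was not tested. The 61 further pathway genes gave 0 calls in all settings run, and 1 member was free of overlap also with plain CPM and with DESeq2 size factors.

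With replicate number added as a block, 0 genes, 0 members and 0 pathway genes were called, and the log2 folds were 0.46 for Mut and 0.0074 for Mmaa. Signs turned for 8 named genes. Mmaa was at 0.048 with limma-voom and between -0.13 and 0.19 when 1 mouse was left out. Mcee was at -0.0039 with GC and length offsets and between -0.030 and 0.078 when 1 mouse was left out. Pccb ran between -0.13 and 0.014 in those fits. Mlycd was at 0.0083 with the offsets and between -0.14 and 0.0056 when 1 mouse was left out. Among the neighbours of Mut, leaving out 1 mouse gave -0.21 to 0.050 for Mog, -0.13 to 0.058 for H2-M3, -0.23 to 0.024 for Adgrf4 and -0.012 to 0.032 for Tnfrsf21. The cause was not tested. Each member had 306 to 3117 reads per library. With 3 mice per genotype, folds of any size inside the printed 95% intervals remain compatible with these values.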
